A study of Mus musculus with 6 samples.

Results

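Lcn2-high AEC2s were the gated alveolar type 2 epithelial cells (AEC2s) in which *Lcn2* made up at least 20 of every 10000 unique molecular identifiers (UMIs, 1 per captured mRNA molecule). They were found by scRNA-Seq of mouse lung. Cells were kept with at least 500 genes, at least 1000 UMIs, and under 15% mitochondrial UMIs. The AEC2 gate asked for at least 3 of *Sftpc*, *Lamp3*, *Slc34a2*, and *Etv5*, and for no UMI of *Ptprc*, *Cdh5*, *Col1a2*, or *Foxj1*. The members were therefore chosen by their measured *Lcn2* level, and *Lcn2* and the 8 gate genes are described here without a test. Of 44096 kept cells, 11414 passed the gate, and 670 of these (5.87%) were Lcn2-high.

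Each library held lung cells without the leukocyte marker CD45, which had been enriched magnetically. The C57BL/6 mice were 10 to 12 weeks old, and tamoxifen, in 4 doses, had been given 2 weeks earlier. Libraries labelled Zip8AEC2 (n = 2) came from mice in which SFTPC-CreER, a tamoxifen-activated recombinase driven in AEC2s, deletes floxed Zip8 (*Slc39a8*) and marks cells through a Rosa26-tdTomato allele. Control libraries (n = 4) came from littermates, whose alleles and number of mice per library are not stated in the sources used here. Each library was taken as 1 replicate, and p-values measure the spread between libraries, which may be technical. The members held 517289, 96967, 369586, and 592965 UMIs in control libraries 1 to 4, and 7424871 and 260070 in libraries 1 and 2 labelled Zip8AEC2. Their median depth was 10197 to 16907 UMIs per cell.

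AEC2s make and secrete pulmonary surfactant and also renew the alveolar epithelium. *Lcn2* encodes lipocalin 2, a secreted protein that binds bacterial siderophores and so withholds iron from microbes, and it is a well-known NF-κB and acute phase response gene of epithelia. *Chil1* encodes a secreted chitinase-like protein, and *Retnla* encodes a resistin-like protein known as an IL-4 and IL-13 response gene of macrophages and lung epithelium. *Sftpc* encodes surfactant protein C, the defining product of AEC2s.

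Library 1 labelled Zip8AEC2 stood apart before any comparison was made. It held 523 of the 670 members (78.1%), and the other 5 libraries together held 147. Its members were 20.9% of its 2501 gated cells (exact Clopper-Pearson 95% interval, 19.3% to 22.6%). Control libraries 1 to 4 held 49 of 2058 (2.38%), 7 of 649 (1.08%), 23 of 1363 (1.69%), and 49 of 3168 (1.55%). Library 2 labelled Zip8AEC2 held 19 of 1675 (1.13%, interval 0.684% to 1.77%), within the range of the controls. These intervals cover counting error only.

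The shift in library 1 labelled Zip8AEC2 ran through its whole gated population. The median *Lcn2* level of gated cells was 7.62 UMIs per 10000 there and 1.87 to 3.07 in the other 5 libraries. The highest 10% of its cells began at 47.3 per 10000, against 7.68 to 9.76 elsewhere, and 121 of its cells reached 100 per 10000. Control libraries 3 and 4 held 1 such cell each, and the others held none. Median *Lcn2* among the members was 44.9 per 10000 in library 1 labelled Zip8AEC2 and 23.8 to 26.8 in the other libraries. Every member held at least 3 *Lcn2* UMIs.

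**Figure D1:**
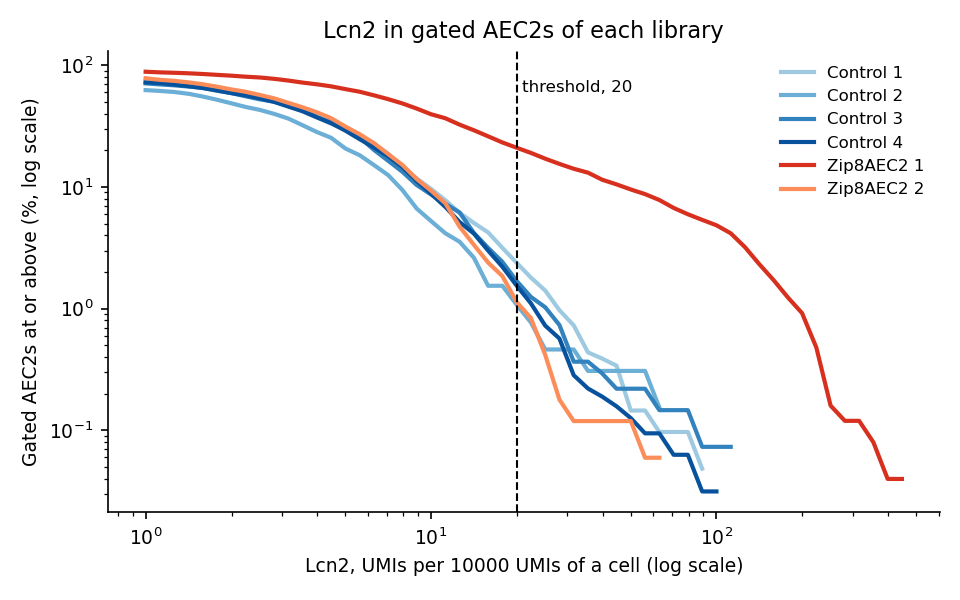
Share of gated AEC2s (%, log scale) at or above each *Lcn2* level (UMIs per 10000 UMIs of a cell, log scale), 1 line per library, with the threshold of 20 dashed. The lines of the 4 control libraries and of library 2 labelled Zip8AEC2 cross the threshold between 1.08% and 2.38%, and that of library 1 labelled Zip8AEC2 at 20.9%.

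The share of Lcn2-high cells averaged 11.0% ± 14.0 (SD, n = 2) in the libraries labelled Zip8AEC2 and 1.67% ± 0.539 (SD, n = 4) in the controls. The difference of 9.35 percentage points was smaller than the spread between the libraries labelled Zip8AEC2. The share is counted from the *Lcn2* levels that chose the members, so it is given without a test. Without library 1 labelled Zip8AEC2 the difference was −0.54 percentage points. From 18 to 20 per 10000 there were 16, 3, 7, and 18 cells in control libraries 1 to 4 and 48 and 11 in the libraries labelled Zip8AEC2, and from 20 to 22 there were 9, 1, 5, 12, 46, and 5 in the same order, of 49, 7, 23, 49, 523, and 19 members. In library 1 labelled Zip8AEC2, the cells just below the threshold held *Retnla* at 7.33 and *Chil1* at 45.7 UMIs per 10000, and those just above it at 24.3 and 48.7. With cells of at least 2000 UMIs thinned to that number and shallower ones left out, the share was 26.5% in that library and 2.73% to 5.91% in the others.

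Of the members, 348 carried a barcode that also occurred in another library, and in 10, all in library 1 labelled Zip8AEC2, the other library held more UMIs of it. With barcodes left out that another library held with more UMIs, the share in that library was 22.4%, against 1.16% in library 2 labelled Zip8AEC2 and 1.22% to 2.46% in the controls. With every shared barcode left out, an alternative chosen after seeing the data, 234 members remained in that library and the share was 18.7%, against 1.60% in library 2 labelled Zip8AEC2 and 1.07% to 3.30% in the controls. A doublet score marked 72 members of library 1 labelled Zip8AEC2 (13.8%), against 12.7% of its other gated cells, and the share without marked doublets was 20.7%. The same level of *Lcn2* was also reached outside the gate. In endothelial cells, gated by their own markers, 0.984% to 7.58% of cells per library were at or above 20 per 10000, with the lowest share in library 1 labelled Zip8AEC2. In fibroblasts at most 0.364% were, and in club cells, gated in the same way, 4.36% were in library 1 labelled Zip8AEC2 and at most 0.935% in the others.

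The gate let in cells rich in *Scgb1a1*, the secretoglobin that defines club cells of the airway. At 500 or more *Scgb1a1* UMIs per 10000, a limit chosen after seeing the data, they were 1331 of the 10744 gated cells below the *Lcn2* threshold (7.57% to 22.8% per library) and 15 of the 670 members. The levels below, in UMIs per 10000 of the summed cells of a state, are given without these cells unless stated. Tests are given for all gated cells and again without them.

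Of the proposed markers, *Chil1* was shared by Lcn2-high cells of every library. Its level in members was 26.9, 25.8, 7.90, and 10.8 per 10000 in control libraries 1 to 4 and 82.7 and 26.8 in libraries 1 and 2 labelled Zip8AEC2. Other gated AEC2s were at 13.1, 11.5, 1.83, and 2.80 and at 32.2 and 13.4. Members were higher in 6 of 6 libraries, although the ranges of both states overlapped across libraries. The log2 difference within libraries was 1.72 (SE 0.10, adjusted p = 4.7e-18 by edgeR, quasi-likelihood fit, Benjamini-Hochberg), 1.60 without the Scgb1a1-rich cells, and 1.69 in the controls alone. With no library term it was 1.56 and missed the threshold (adjusted p = 0.501 from edgeR). Fibroblasts, which should lack *Chil1*, were at 0.268 to 1.29 per 10000 at median depths of 6214 to 10616 UMIs.

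*Retnla* was high in the Lcn2-high cells of 1 library. Members were at 54.3 per 10000 in library 1 labelled Zip8AEC2, and at 0.445, 0.103, 0.271, and 1.83 in control libraries 1 to 4 and 0.269 in library 2 labelled Zip8AEC2. Other gated AEC2s were at 4.03 in the first of these, at 0.180, 0.0732, 0.127, and 0.309 in the controls, and at 0.172 in the last. Fibroblasts of the same libraries were at 8.90 in library 1 labelled Zip8AEC2, at 0.519, 0.404, 0.849, and 0.600 in the controls, and at 0.423 in library 2 labelled Zip8AEC2. *Retnla* was also high in the gated club cells of that first library, at 39.2 per 10000, against 1.70, 1.18, 3.35, and 7.22 in those of the controls and 3.54 in those of library 2 labelled Zip8AEC2. The members of control library 4 and of library 1 labelled Zip8AEC2 were the only ones above the fibroblasts of their own library. In control library 4 a single cell held 67.3% of the members' 101 *Retnla* UMIs. Gated endothelial cells were lower than fibroblasts in each library, at 0.0453, 0.130, 0.0642, and 0.0846 in the controls and 1.16 and 0.0293 in the libraries labelled Zip8AEC2. Members were above these endothelial cells except in control library 2. The part of free RNA in these levels was not tested. The log2 difference within libraries was 0.72 with all gated cells (SE 0.22, adjusted p = 0.0388 from edgeR) and 2.77 without the Scgb1a1-rich cells (SE 0.17, adjusted p = 9.56e-21). In the controls alone it was 2.02 without the Scgb1a1-rich cells (adjusted p = 2.07e-12 from edgeR), with the single cell of control library 4 among these members, and 0.02 with all gated cells (adjusted p = 0.995). Without control library 3 the difference with all gated cells was 1.12, and at an *Lcn2* threshold of 10 it was −0.058. With all gated cells, *Retnla* also missed the threshold in DESeq2 (0.30), without a filter on low counts (0.72, adjusted p = 0.101 from edgeR), with 10 cells per state (0.58, adjusted p = 0.128), and with no library term (1.80, adjusted p = 0.687).

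Within library 1 labelled Zip8AEC2, *Retnla* was concentrated in few of the Lcn2-high cells while *Chil1* was spread over nearly all. Of 509 members, 115 (22.6%) were at or above 10 *Retnla* UMIs per 10000, against 31 of 1580 other gated AEC2s (1.96%). The median member was at 1.24, the highest 10% began at 124, and the highest cell reached 1794. The 51 members with the most *Retnla* UMIs held 88.6% of the 39212 found in members, and the same share of *Chil1* UMIs in its own 51 highest members was 25.3%. For *Chil1*, 507 of 509 members were at or above 10 per 10000.

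*Chil1* was higher in bins of higher *Lcn2* below the threshold too, and *Retnla* was in 5 of 6 libraries. In library 1 labelled Zip8AEC2, *Retnla* was at 0.952, 2.74, 9.79, 48.2, 65.5, and 53.2 per 10000 in cells with *Lcn2* at 0 to 5, 5 to 10, 10 to 20, 20 to 40, 40 to 80, and 80 or more, bins of 136 to 645 cells. *Chil1* in the same bins was at 24.1, 33.5, 41.9, 56.7, 81.2, and 118. Over the 3 bins below the threshold, *Retnla* went from 0.133 to 0.199 and 0.519 in control library 1, from 0.0343 to 0.116 and 0.457 in control library 2, and from 0.0844 to 0.0933 and 0.499 in control library 3. It went from 0.333 to 0.256 and 0.263 in control library 4, and from 0.122 to 0.260 and 0.279 in library 2 labelled Zip8AEC2, all at or below the fibroblasts of these libraries except in the third bin of control library 2. In the 5 other libraries *Chil1* went from 1.04 to 11.4 per 10000 in the lowest bin to 8.26 to 26.7 between 20 and 40, higher in the upper bin in each. *Sftpc*, which the gate uses, was at 1688 to 2005 per 10000 in members of the control libraries and at 981 and 1071 in those labelled Zip8AEC2. These bins of cells share their libraries and are given as a description.

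**Figure D2:**
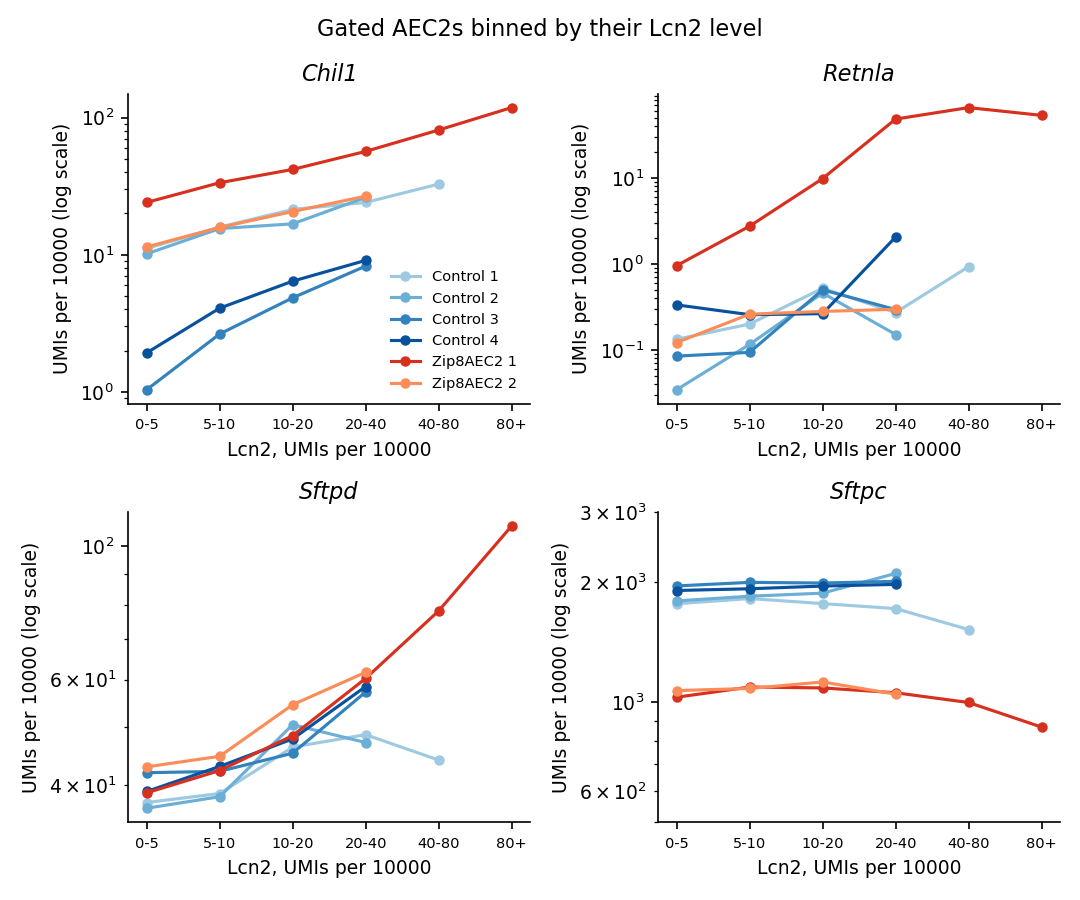
Levels of 4 genes (UMIs per 10000 of the summed cells, log scale) in gated AEC2s binned by their *Lcn2* level (UMIs per 10000), 1 line per library, for bins of at least 5 cells with the gene at a level above 0 and with Scgb1a1-rich cells left out. *Chil1* is higher between 20 and 40 than between 0 and 5 in all 6 libraries, and *Retnla* passes 10 per 10000 only in library 1 labelled Zip8AEC2.

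The promoters of the 3 genes are shown because their transcripts name these cells. They come from RefSeq's table of gene starts on GRCm38.p6 (mm10), in which all 3 genes matched by symbol, and run 5′ to 3′ from 250 bases before the RefSeq start, ending before the first base of the first-numbered GENCODE transcript where that lies upstream. The genes lie at chromosome 2, 32384633 to 32388252 (*Lcn2*), chromosome 16, 48842551 to 48844461 (*Retnla*), and chromosome 1, 134182176 to 134190181 (*Chil1*). The *Lcn2* stretch lies inside the gene's span, since a longer GENCODE transcript starts further upstream, and 139 of its bases are coding sequence in exon 2 of that transcript. Capitals mark letters of a C/EBP motif (TT, any 2 bases, G, any base, AA) or a STAT6 motif (TTC, any 4 bases, GAA), searched on both strands.
Lcn2, chr2:32387798-32387989, minus strand: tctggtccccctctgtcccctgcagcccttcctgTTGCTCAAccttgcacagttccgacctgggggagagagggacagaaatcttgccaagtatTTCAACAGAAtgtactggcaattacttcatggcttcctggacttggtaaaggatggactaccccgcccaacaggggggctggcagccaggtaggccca
Retnla, chr16:48842359-48842550, plus strand: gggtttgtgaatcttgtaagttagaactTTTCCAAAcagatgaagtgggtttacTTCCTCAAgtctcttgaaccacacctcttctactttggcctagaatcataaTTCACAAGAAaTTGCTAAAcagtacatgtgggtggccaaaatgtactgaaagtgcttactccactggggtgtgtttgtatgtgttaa
Chil1, chr1:134181906-134182155, plus strand: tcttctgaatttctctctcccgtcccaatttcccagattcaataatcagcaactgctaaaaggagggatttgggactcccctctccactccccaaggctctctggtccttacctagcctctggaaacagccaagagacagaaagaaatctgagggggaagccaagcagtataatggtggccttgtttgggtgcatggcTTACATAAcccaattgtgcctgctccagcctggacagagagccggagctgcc

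The *Retnla* stretch held 3 matches to the C/EBP letters, and the *Lcn2* and *Chil1* stretches 1 each. The STAT6 letters occurred once in the *Lcn2* and once in the *Retnla* stretch. Both *Lcn2* matches lie among the bases that are coding sequence in the longer GENCODE transcript. Neither the STAT3 letters (TTC, any 3 bases, GAA) nor an NF-κB motif (GGG, any 2 bases, TT, any base, CC) was in these windows. Over all 32841 RefSeq promoter windows of 250 bases, 36.9% held the C/EBP letters, 5.85% those of STAT6, 7.02% those of STAT3, and 4.11% those of NF-κB. The *Lcn2* and *Retnla* stretches are shorter, at 192 bases each, so letters absent from them may lie in the bases left out. A match describes the letters only.

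Members were next compared with the other gated cells of the same library over all genes. Control libraries 1, 3, and 4 and library 1 labelled Zip8AEC2 held at least 20 members and entered the fit, while control library 2 (7 members) and library 2 labelled Zip8AEC2 (19 members) did not. Of 12604 genes tested besides those of the rule, 249 (1.98%) were higher and 471 (3.74%) lower in Lcn2-high cells. Without the Scgb1a1-rich cells, 252 of 12219 (2.06%) were higher and 138 (1.13%) lower, and 182 of the 249 and 252 higher genes and 83 of the 471 and 138 lower genes were shared between both fits. The gene lists below follow the second fit, with the first beside it where the calls changed.

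The comparison was repeated without library 1 labelled Zip8AEC2. In the 3 control libraries, without Scgb1a1-rich cells, 80 genes (0.688% of 11630) were higher and 30 (0.258%) lower. These libraries were also part of the first comparison, so its calls and these are not independent. With every shared barcode left out, control libraries 1 and 4 and library 1 labelled Zip8AEC2 entered, and 94 genes were higher and 29 lower with all gated cells. The calls themselves fell in number without that library, from 249 to 86 higher and from 471 to 131 lower with all gated cells.

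**Figure D3:**
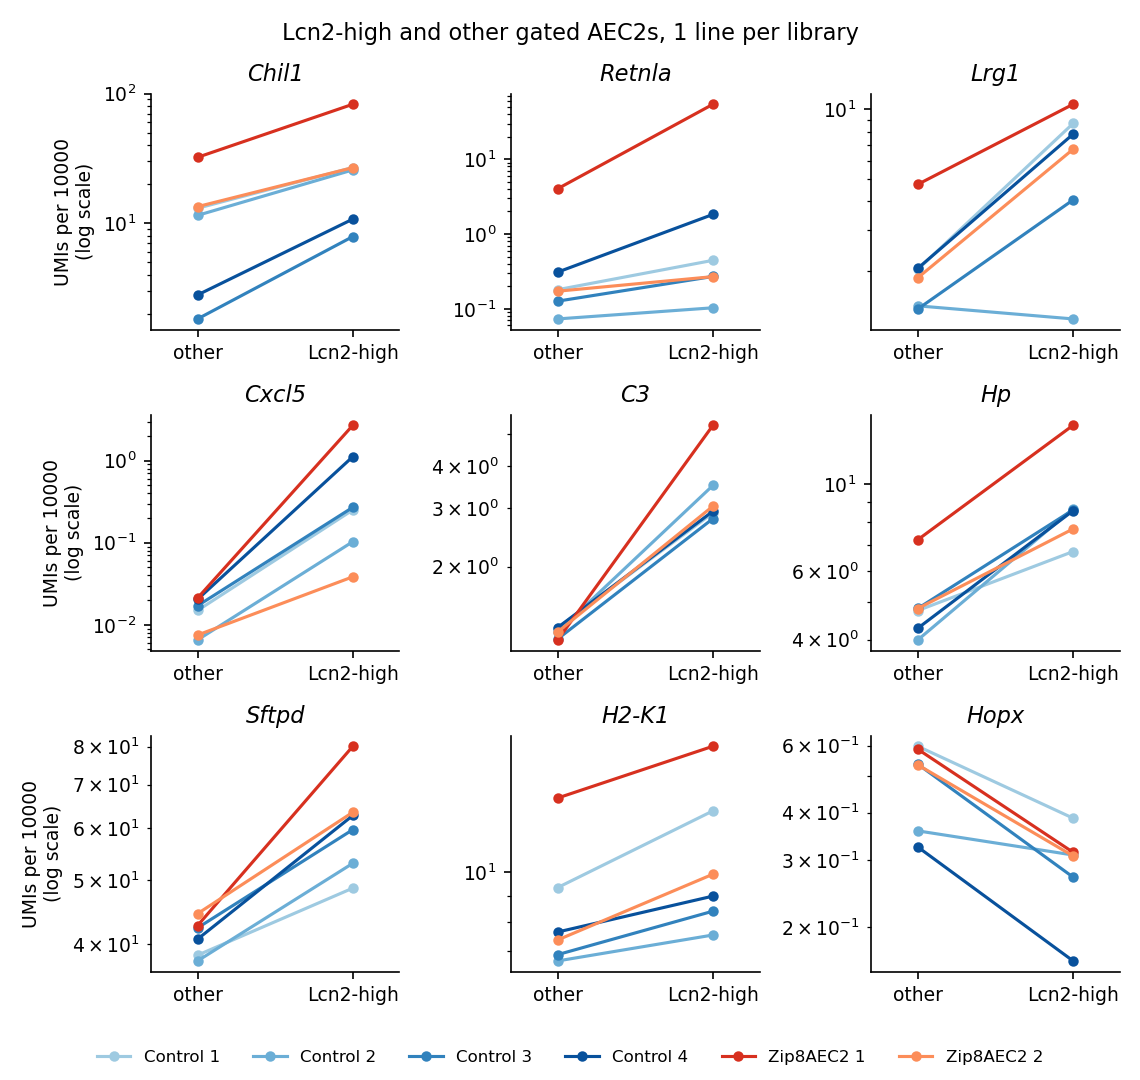
Levels of 9 genes (UMIs per 10000 of the summed cells, log scale) in other and in Lcn2-high gated AEC2s, with 1 line joining both states of each library and Scgb1a1-rich cells left out. *Chil1*, *Retnla*, *Cxcl5*, *C3*, *Hp*, *Sftpd*, and *H2-K1* are higher in Lcn2-high cells in 6 of 6 libraries, *Lrg1* in 5, and *Hopx* is lower in 6. The *Retnla* level in members of control library 2 is 1 UMI. With all gated cells, *Retnla* is lower in members of control libraries 2 and 3 and of library 2 labelled Zip8AEC2.

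With library 1 labelled Zip8AEC2 in the fit, acute phase and NF-κB response genes were the list with the most members higher in Lcn2-high cells. Of 27 listed genes tested, 22 were higher and none lower, with a median log2 difference of 0.94, against −0.02 over all genes tested. With all gated cells 20 of 28 were higher, and *Cp* and *Hp* were lower. In the control libraries alone 8 of 24 were higher: *C3*, *Cp*, *Hp*, *Lbp*, *Sod2*, *Steap4*, *Cxcl2*, and *Cxcl5*. That was as many as in the secreted defence list there (8 of 20). No NF-κB subunit or feedback inhibitor was called in the controls alone. The list held chemokines (*Cxcl1*, *Cxcl2*, *Cxcl5*, *Ccl20*), secreted acute phase proteins (*Saa3*, *C3*, *Hp*, *Lbp*, *Orm1*), NF-κB subunits and feedback inhibitors (*Nfkb2*, *Relb*, *Nfkbia*, *Tnfaip3*, *Nfkbiz*), and the mitochondrial superoxide dismutase gene *Sod2*.

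*Cxcl5*, a neutrophil-attracting chemokine, was at 0.251, 0.103, 0.271, and 1.12 per 10000 in members of control libraries 1 to 4 and at 2.71 and 0.0385 in those labelled Zip8AEC2. Other gated AEC2s were at 0.00653 to 0.0212, so every library was higher in members. The levels in control library 2 and library 2 labelled Zip8AEC2 were 1 UMI each. *Cxcl5* differed by 3.09 on the log2 scale with all gated cells (SE 0.18, adjusted p = 3.23e-17 from edgeR) and 5.90 without the Scgb1a1-rich cells (SE 0.22, adjusted p = 1.39e-31). As with *Retnla*, few cells carried it: 112 of 509 members of library 1 labelled Zip8AEC2 held a *Cxcl5* UMI, and the 51 highest held 91.8% of them. In control libraries 1, 3, and 4 it was found in 3 of 49, 3 of 23, and 9 of 48 members. A single cell held 69.2%, 80%, and 38.7% of the members' 13, 10, and 62 *Cxcl5* UMIs there, so the control values rest on few cells.

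*C3*, the central complement component, was at 2.90, 3.51, 2.79, and 2.93 per 10000 in members of control libraries 1 to 4 and at 5.31 and 3.04 in those labelled Zip8AEC2. Other gated AEC2s were at 1.20 to 1.31, so the states did not overlap. The log2 difference of *C3* was 0.97 (SE 0.09, adjusted p = 1e-10 from edgeR), and 1.49 without the Scgb1a1-rich cells. Haptoglobin, *Hp*, was at 6.73 to 8.66 in control members and at 14.2 and 7.69 in those labelled Zip8AEC2, above the 3.99 to 7.21 of other cells in each library. Its log2 difference was 0.85 without the Scgb1a1-rich cells but −0.50 with them (adjusted p = 0.000892 from edgeR). With the Scgb1a1-rich cells, other gated cells were at 8.74 to 19.5 and members at 6.73 to 15.1 per 10000.

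*Saa3*, serum amyloid A3, rested on library 1 labelled Zip8AEC2. It had 427 UMIs in the members there, 1 each in those of control libraries 1 and 4, and none in the others. In that library 25 of 509 members held a *Saa3* UMI, and 1 cell held 45.4% of them. *Cxcl1* was called higher (log2 difference 1.38, SE 0.20, adjusted p = 1.62e-06 from edgeR), with control libraries 1 to 4 at 0.116, 4.74, 0.379, and 0.0543 per 10000 in members and 0.0425, 0.467, 0.334, and 0.0635 in other cells. In control library 4 members were thus below the other cells, and in the controls alone the difference was 0.40 without the Scgb1a1-rich cells (adjusted p = 0.879).

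The NF-κB letters are shown for higher genes of 3 lists, because the acute phase list is built around that factor. Each line is 30 bases from RefSeq's promoter windows (GRCm38.p6), 5′ to 3′ on the gene's strand, with the match nearest to the start in capitals. Both strands were searched. The matches of *Ccl20*, *Nfkbia*, *Steap4*, *Pglyrp1*, and *B2m* lie on the reverse strand, so they read here as GG, any base, AA, any 2 bases, CCC.
Cxcl1, chr5:90891164-90891193, plus strand: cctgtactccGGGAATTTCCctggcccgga
Cxcl2, chr5:90903811-90903840, plus strand: cctggtccccGGGCTTTTCCagacatcgtg
Ccl20, chr1:83116676-83116705, plus strand: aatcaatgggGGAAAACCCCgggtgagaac
Nfkbia, chr12:55492657-55492686, minus strand: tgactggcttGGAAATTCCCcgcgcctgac
Nfkb2, chr19:46304688-46304717, plus strand: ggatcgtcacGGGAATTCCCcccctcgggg
Steap4, chr5:7960236-7960265, plus strand: caaaggttccGGAAAACCCCttttataccc
Pglyrp1, chr7:18884587-18884616, plus strand: ggtctgggtcGGAAAGTCCCgcccaggtgt
H2-K1, chr17:34000439-34000468, minus strand: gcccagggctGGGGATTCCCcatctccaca
H2-D1, chr17:35262913-35262942, plus strand: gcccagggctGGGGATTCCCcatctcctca
B2m, chr2:122147551-122147580, plus strand: actgaaaatgGGAAAGTCCCtttgtaacct

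Of the 252 higher genes, 191 matched a RefSeq promoter by symbol, and 34 of their 239 windows (14.2%) held the NF-κB letters. The share was 4.69% over the 11837 windows of all genes tested and 6.03% over the 116 windows of the lower genes. For the STAT3 letters the higher genes' share was 7.95% against 5.99% over all genes tested, for C/EBP 35.6% against 28.3%, and for STAT6 3.77% against 4.36%. By list, the letters were in a window of 7 of 16 higher acute phase genes with a promoter in the table, 5 of 11 MHC class I and peptide loading genes, and 1 of 7 secreted defence genes. *H2-K1*, *H2-D1*, *H2-Q6*, and *H2-Q7* are close copies that share these letters. Reads may be shared between them too, which was not tested, so their counts are uncertain.

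Several secreted defence genes were higher. Of 21 listed genes tested, 9 were higher and none lower (8 higher and 5 lower with all gated cells), among them *Slpi*, *Lrg1*, *Lyz1*, *Lyz2*, *Pglyrp1*, and *Pigr*. This list shares *Sftpd* and *Sftpa1* with the AEC2 markers. In the control libraries alone 8 of 20 were higher. *Lyz1* went both ways between libraries. In library 2 labelled Zip8AEC2 it was at 10.6 per 10000 in members and 18.3 in other cells. In control library 4 it was at 13.0 and 14.7 with all gated cells. Elsewhere it was higher in members, from 8.97 against 8.74 in control library 1 to 44.8 against 11.1 in control library 3. *Lrg1*, a leucine-rich glycoprotein of the acute phase, was at 8.70, 1.24, 4.06, and 7.82 per 10000 in members of control libraries 1 to 4 and at 10.5 and 6.73 in those labelled Zip8AEC2, against 1.37 to 2.05 in other cells of the controls and 4.74 and 1.87 in the others. Control library 2, with 7 members, was the only one in which members were lower. The log2 difference was 1.82 (SE 0.09, adjusted p = 2.66e-19 from edgeR).

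*Slpi*, a secreted inhibitor of neutrophil elastase, was at 2.84, 2.48, 1.11, and 1.07 per 10000 in members of control libraries 1 to 4 and at 3.90 and 0.846 in those labelled Zip8AEC2, and at 0.330 to 0.596 in other cells, with no overlap. The log2 difference of *Slpi* was 2.36 (SE 0.18, adjusted p = 6.22e-14 from edgeR). *Pigr*, which carries IgA across epithelia, was higher in members of all 6 libraries, at 0.154 to 1.48 against 0.0345 to 0.0957. For *Pigr* the log2 difference was 3.25 without the Scgb1a1-rich cells (SE 0.19, adjusted p = 5.95e-22 from edgeR) and 0.05 with them. Over 23 alternative settings it ranged from −0.82 to 3.47 and passed the threshold, in either direction, in 10. *Lyz2* differed little in size but evenly, at 228 to 314 in members and 207 to 274 in other cells, higher in 6 of 6 libraries.

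Other genes with the smallest adjusted p-values were *Ly6i*, a GPI-anchored Ly6 family gene with a log2 difference of 4.26 (SE 0.19), *Slc26a4*, the anion exchanger pendrin, at 2.97 (SE 0.14), *Noxo1*, an organizer of NADPH oxidase 1, at 2.60 (SE 0.18), *Cd83* at 1.99 (SE 0.20), and *Itih4*, an acute phase protease inhibitor heavy chain, at 1.78 (SE 0.10). The first 3 and *Itih4* were higher in members of 6 of 6 libraries and *Cd83* in 5. *Cd83* was at 1.18 without library 1 labelled Zip8AEC2 (adjusted p = 0.0442 from edgeR), and at 1.06 with the Scgb1a1-rich cells left out as well (adjusted p = 0.188). *Slc26a4* in members was at 0.541, 0.619, 0.216, and 0.724 per 10000 in the controls and at 2.35 and 0.192 in the libraries labelled Zip8AEC2, against 0.0452 to 0.290 in other cells. Few UMIs lay behind the lowest of these, 8 in control library 3 and 5 in library 2 labelled Zip8AEC2.

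AEC2 marker genes were present in members of every library. Of 12 AEC2 marker genes outside the gate, *Sftpa1*, *Sftpd*, *Cxcl15*, and *Cd74* were higher, and the phospholipid acyltransferase gene *Lpcat1* was lower (the same 4 higher and none lower with all gated cells). The median log2 difference of the 12 was −0.01. *Sftpd*, a surfactant collectin that binds microbes, was at 48.7, 53.1, 59.8, and 62.8 per 10000 in members of control libraries 1 to 4 and at 80.1 and 63.5 in those labelled Zip8AEC2. Other cells were at 37.7 to 44.5, below every member level. Its log2 difference was 0.69 (SE 0.07, adjusted p = 1e-10 from edgeR).

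Many antigen presentation genes were higher, by small amounts. Of 18 MHC class I and peptide loading genes, 11 were higher and none lower (13 with all gated cells, 6 in the controls alone), with a median log2 difference of 0.44. Of 7 MHC class II genes, 4 were higher (6 with all gated cells, 4 in the controls alone), with a median of 0.31. *H2-K1* was at 13.2, 7.53, 8.39, and 8.98 per 10000 in members of control libraries 1 to 4 and at 17.7 and 9.92 in those labelled Zip8AEC2, against 9.33, 6.69, 6.89, 7.63, 14.0, and 7.36 in other cells of the same libraries. Members were higher in 6 of 6, and the libraries overlapped between the states. The log2 difference was 0.46 (SE 0.07, adjusted p = 1.06e-05 from edgeR). It missed the threshold with cells holding 3 of 4 club or neutrophil genes left out (0.33, adjusted p = 0.139) and with no library term (0.50, adjusted p = 0.347).

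Interferon response genes were mixed. Of 17 tested, *Isg15*, *Bst2*, *Ifi27l2a*, *Gbp2*, *Ifitm3*, and *Ly6e* were higher and *Cxcl10* was lower. *Gbp2* and *Ifitm3* were not called with all gated cells, where *Ifit1* was lower too, and in the controls alone 1 of 15, *Ly6e*, was higher. The median log2 difference was 0.67, and −0.26 in the controls alone. *Ly6e* was the abundant one, at 8.88 to 12.7 per 10000 in members and 6.22 to 6.90 in other cells, with no overlap. Of 12 IL-4 and IL-13 response genes, *Retnla*, *Itln1*, and *Slc26a4* were higher. With all gated cells *Retnla*, *Slc26a4*, and the receptor gene *Il4ra* were higher among 13, and *Itln1*, *Clca1*, and *Muc5ac*, the last a mucin gene, were lower. *Retnla* and *Slc26a4* were higher among 10 in the controls alone. Of 13 genes of the IL-6 family, STAT3, and C/EBP, *Osmr* and *Pim1* were higher and *Lifr* was lower, and with all gated cells *Pim1* was higher and *Cebpb* lower. None of these 13 was called in the controls alone, where edgeR found 0 in either direction. Among 14 iron and metal handling genes, *Fth1* (ferritin heavy chain), *Trf* (transferrin), and *Cp* (ceruloplasmin) were higher, and with all gated cells none of 15 was higher and *Cp* was lower. The same 3 were higher in the controls alone.

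**Figure D4:**
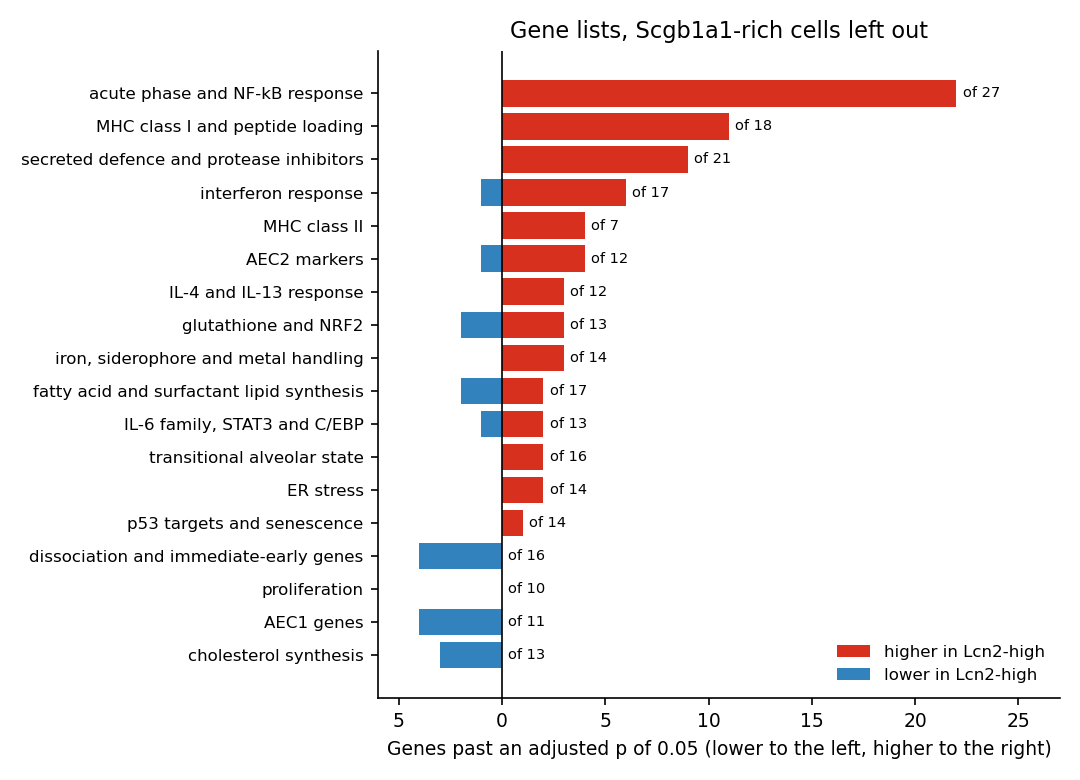
Number of genes of each list past an adjusted p of 0.05 in Lcn2-high against other gated AEC2s with Scgb1a1-rich cells left out, higher to the right and lower to the left, with the number tested beside each bar. Acute phase and NF-κB response has 22 of 27 higher, and AEC1 genes have 4 of 11 lower.

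Some genes of alveolar type 1 cells (AEC1s), the thin gas exchange cells that AEC2s give rise to, were lower. Of 11 tested, *Hopx*, *Rtkn2*, *Akap5*, and *Spock2* were lower and none higher, with a median log2 difference of −0.37. *Rtkn2* was not called with all gated cells, and in the controls alone 1 of 11 was lower. *Hopx* was at 0.387, 0.309, 0.271, and 0.163 per 10000 in members of control libraries 1 to 4 and at 0.314 and 0.308 in those labelled Zip8AEC2, lower than the other cells of its own library in 6 of 6, which were at 0.598, 0.358, 0.536, 0.325, 0.587, and 0.534. The log2 difference of *Hopx* was −1.16 (SE 0.13, adjusted p = 1.1e-08 from edgeR). Over 23 alternative settings it was −1.26 to −0.53 and passed the threshold in 21.

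*S100a6*, a calcium-binding protein gene, was the 1 gene of the 12 lower genes with the smallest adjusted p-values that was still called without the Scgb1a1-rich cells. It was at 0.406, 0.413, 0.216, and 0.199 per 10000 in members of control libraries 1 to 4 and at 0.169 and 0.461 in those labelled Zip8AEC2, and at 0.712 to 1.53 in other cells, with no overlap. Its log2 difference was −2.81 (SE 0.13, adjusted p = 3.02e-20 from edgeR). *Malat1*, a nuclear noncoding RNA, was lower in 6 of 6 libraries, at 86.2 to 159 in members and 146 to 207 in other cells.

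The other lists had few calls. Of 16 transitional alveolar genes, *Sfn* and *Clu* were higher and *Krt8* was not called (log2 difference 0.02), while with all gated cells *Krt8*, *Krt18*, *Krt19*, and *Tm4sf1* were lower and *Clu* was higher. *Sfn* was the 1 call of 15 in the controls alone. Of 16 dissociation and immediate-early genes, *Jun*, *Jund*, *Egr1*, and *Hsp90aa1* were lower. *Junb* and *Ier3* were lower in place of *Jund* with all gated cells, and in the controls alone none was. *Idi1*, *Fdft1*, and *Insig1* were lower among 13 cholesterol synthesis genes (none of 13 with all gated cells, and none of 13 in the controls alone). Of 17 genes of fatty acid and surfactant lipid synthesis, *Scd1* and *Fabp5* were higher and *Scd2* and *Lpcat1* were lower, and with all gated cells *Elovl1* was higher too and none was lower. *Scd1* and *Elovl1* were higher and none lower among 16 in the controls alone. Of 13 glutathione and NRF2 genes, *Gclc*, *Gsta4*, and *Prdx1* were higher and *Gstm1* and *Prdx6* were lower. With all gated cells *Gclc* was the 1 higher gene of this list, and *Nqo1*, *Slc7a11*, *Gstm1*, *Gpx2*, and *Prdx6* were lower. In the controls alone *Gclc* and *Prdx1* were higher and none lower among 11. *Sdf2l1* and *Manf* were higher among 14 ER stress genes (*Manf* alone with all gated cells and in the controls alone). *Fas* was higher among 14 p53 targets, with *Perp* lower with all gated cells and no call in the controls alone. No proliferation gene of 10 was called in edgeR with or without the Scgb1a1-rich cells.

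Markers of other cell types were read beside these results. All 10 club and goblet genes were lower in members with all gated cells. The 12 lower genes with the smallest adjusted p-values were *S100a6*, *Bpifa1*, *Aldh1a1*, *Bpifb1*, *Reg3g*, *Scgb3a2*, *Tff2*, *Lypd2*, *Gsto1*, *Muc5b*, *Clca1*, and *Cldn10*. Of these, *Aldh1a1*, *Bpifb1*, *Reg3g*, *Scgb3a2*, and *Muc5b* are on the club and goblet list. *Clca1* was not called without library 1 labelled Zip8AEC2 (−7.51, adjusted p = 0.643 from edgeR). Without the Scgb1a1-rich cells, *Bpifa1* went from −4.91 to −0.37 and *Scgb3a2* from −3.95 to −0.11 on the log2 scale, neither of them called, and *Scgb1a1* and *Cbr2* were the 2 club and goblet genes still lower. Summed over all members, Scgb1a1-rich ones included, the 10 club and goblet genes were at up to 478 per 10000, against 649 to 2146 in all other gated cells. *Scgb1a1* was the most abundant, at 65.7 to 431 per 10000 in all members, and the highest value, in control library 4, includes its 1 Scgb1a1-rich member. The marker sums that follow also count all members.

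Neutrophil, macrophage, and lymphocyte genes were near 0 in the Lcn2-high cells. The 10 neutrophil genes summed to at most 0.213 per 10000 in members of any library, with *G0s2* the most abundant where any was found. *S100a8* and *S100a9* were at 0 in the members of 5 libraries, *Csf3r* and *Cxcr2* were at 0 in all 6, and no gated cell held 3 of *S100a8*, *S100a9*, *Retnlg*, and *Csf3r*. The 10 macrophage genes summed to 0.115 to 0.928 per 10000, with *Marco*, *C1qa*, and *Adgre1* at 0 in all 6 libraries, and 2 of the 3 that could be tested, *Cd68* and *Plet1*, were higher. Neither was called in the controls alone, where 2 could be tested, and *Plet1* was at 0 in members of library 2 labelled Zip8AEC2. The lymphocyte genes summed to at most 0.00269 per 10000, and none could be tested.

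Globin genes moved with a few cells. The 5 erythroid genes summed to 39.7, 1.65, 0, and 3.76 per 10000 in members of control libraries 1 to 4 and to 3.07 and 0.115 in those labelled Zip8AEC2. All other gated cells were at 1.93, 2.27, 0.149, 24.6, 0.504, and 0.927 in the same order, so members were higher in 2 libraries and lower in 4. Of the 5, *Hba-a1*, *Hbb-bs*, and *Hbb-bt* were called higher without the Scgb1a1-rich cells and none with them, and in the controls alone none was higher and *Hba-a2* was lower. In control library 1, a single member held 54.2% of the *Hbb-bs* UMIs of members, and in library 1 labelled Zip8AEC2 a single member held 72.9%. Fibroblast, endothelial, and ciliated genes were not called higher in members by either fit. Lower with all gated cells were 5 of 7 fibroblast, 1 of 7 endothelial, 4 of 6 ciliated, and 2 of 3 neutrophil genes, and without the Scgb1a1-rich cells 2 of the 6 ciliated genes were. The part of these cells in the other differences was not tested.

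*Slc39a8*, the targeted gene, did not separate the labels in Lcn2-high cells. It was at 2.73, 2.48, 1.81, and 2.35 per 10000 in members of control libraries 1 to 4 and at 2.82 and 2.46 in those labelled Zip8AEC2, so the groups overlapped. Reads from the 3′ end of the transcript do not tell a deleted exon apart, and every direction between the genotypes is therefore between libraries as labelled. *Esr1*, whose hormone-binding part is contained in CreER, was at 0 in the members of all 4 controls and at 0.201 and 0.115 in those labelled Zip8AEC2, from 147 and 3 UMIs with all members counted. Of other gated AEC2s, 0% to 0.193% per control library held an *Esr1* UMI, against 23.7% and 26.5% in libraries 1 and 2 labelled Zip8AEC2. *Esr1* thus went with the label, and an effect of CreER cannot be told apart from one of the deletion. Within libraries, Lcn2-high and other gated cells did not differ detectably in *Slc39a8* (log2 difference 0.20, SE 0.09, adjusted p = 0.315 from edgeR) or *Esr1* (0.08, SE 0.30, adjusted p = 0.987). At an *Lcn2* threshold of 10 the difference in *Slc39a8* was 0.32 and passed (adjusted p = 6.75e-05 from edgeR).

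A test of the genotypes within the members was planned for libraries with at least 20 of them, which left 1 library labelled Zip8AEC2. With at least 10, a minimum chosen after seeing the data, control libraries 1, 3, and 4 entered beside both libraries labelled Zip8AEC2. Of 5691 genes tested, 0 (0%) passed in edgeR or in DESeq2, and 315 had an unadjusted p under 0.05 in edgeR. *Retnla* had a log2 difference of 4.85 (SE 1.02, adjusted p = 0.172 from edgeR) and *Chil1* of 1.75 (SE 0.39, adjusted p = 0.172). Without control library 1 this fit called 8 genes, and without control library 3 it called 2. Without library 2 labelled Zip8AEC2 it called 133, a comparison of library 1 with the controls in which that lone library was assumed to vary like them. With the threshold lowered to 10 per 10000, all 6 libraries had 34 to 987 cells. Of 9730 genes tested, 6 (0.0617%) differed between the genotypes: *Esr1*, *Cdkn1a*, *Bmp1*, *Phlda3*, and *9030617O03Rik* were higher in the libraries labelled Zip8AEC2, and *Gpx3* was lower. *Cdkn1a*, a p53 target that halts the cell cycle, had a log2 difference of 1.64 (SE 0.13, adjusted p = 6.22e-05 from edgeR), and *Phlda3*, another p53 target, of 2.25 (SE 0.27, adjusted p = 0.00299). *Cdkn1a* was at 0.425, 0.103, 0.812, and 0.380 per 10000 in members of control libraries 1 to 4 and at 1.39 and 1.96 in those labelled Zip8AEC2, and at 0.497, 0.734, 0.514, 0.605, 1.97, and 1.40 in other gated AEC2s in the same order. Both states were thus above every control in the libraries labelled Zip8AEC2, and within libraries the states did not differ detectably (log2 difference −0.28, adjusted p = 0.265). Below the threshold of 20 the genotype difference was 1.25 for *Cdkn1a* (adjusted p = 0.0904) and 1.61 for *Phlda3* (adjusted p = 0.122). *Retnla* (5.08, SE 0.97, adjusted p = 0.138) and *Chil1* (1.60, SE 0.46, adjusted p = 0.474) did not pass. In gated cells below the threshold of 20, 4 of 13460 genes (0.0297%) differed, namely *Esr1*, *Bmp1*, *Gt(ROSA)26Sor*, and *Spink5*, of which the last was lower. *Esr1*, *Bmp1*, and *Gt(ROSA)26Sor* had been listed as transcripts linked to the engineered alleles, here and at the threshold of 10. Whether their differences come from those alleles was not tested. All these comparisons share control libraries. Without library 1 labelled Zip8AEC2 the fit at the threshold of 10 gave 3 genes and that below 20 gave 4, and without library 2 they gave 176 and 111, each again with 1 library labelled Zip8AEC2 assumed to vary like the controls.

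Whether the difference between Lcn2-high and other cells itself differed was tested with an interaction term. With at least 20 members asked for, it compared library 1 labelled Zip8AEC2 with 3 controls and not the genotypes, and that single library was assumed to vary like the controls. Of 13302 genes, 42 (0.316%) passed with all gated cells. Without the Scgb1a1-rich cells 28 of 12924 (0.217%) had a larger difference in library 1 labelled Zip8AEC2 and 4 (0.031%) a smaller one. *Retnla* had an interaction of 2.01 on the log2 scale (SE 0.19, adjusted p = 2.63e-22 from edgeR) and 1.90 without the Scgb1a1-rich cells, and *Spink5*, a serine protease inhibitor gene, 2.02 (SE 0.26, adjusted p = 6.18e-11). *Chia1*, the acidic chitinase, had 1.20 (SE 0.20, adjusted p = 1.25e-06), and *Vnn1*, a pantetheinase, 1.91 (SE 0.31, adjusted p = 7.69e-07). *Lrg1* was among the 4 with a smaller difference when the Scgb1a1-rich cells were left out (−0.64, adjusted p = 0.0375), and was not called with all gated cells (−0.50, adjusted p = 0.910). *Chil1* had −0.16 (SE 0.15, adjusted p = 1). DESeq2 called 1 gene in the comparison with all gated cells, edgeR with no library term called 0, and edgeR called 9 with every shared barcode left out. When libraries with 10 members entered, which adds library 2 labelled Zip8AEC2, edgeR called 31, and 17 without the Scgb1a1-rich cells. In that fit with all gated cells *Retnla* had 1.25 (SE 0.18, adjusted p = 2.17e-08), *Spink5* 1.54, and *Vnn1* 1.65, and *Chia1* (0.43), *Lrg1* (−0.31), and *Chil1* (−0.43) did not pass.

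Levels are given for 2 of these genes. *Chia1* was at 4.50, 2.37, 4.68, and 3.28 per 10000 in members of control libraries 1 to 4 and at 4.99, 3.39, 4.76, and 4.74 in their other cells. In library 1 labelled Zip8AEC2 it was at 4.93 in members and 2.38 in other cells, so its members were near the highest control and its other cells below every control. *Spink5* was likewise at 0.680 in members of that library and 0.191 in its other cells, against 0.309 to 0.761 and 0.522 to 0.617 in the controls. In library 2 labelled Zip8AEC2, *Spink5* was at 0.0385 in members, from 1 UMI, and 0.261 in other cells. *Chia1* was at 2.96 in members there and at 5.36 in its other cells, the latter above the other cells of every control.

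The genes whose level across single gated cells was most like that of *Lcn2* were *Chil1*, *Lyz2*, *Cxcl15*, *Lrg1*, and *Sftpa1*, among 1734 genes found in at least 10% of cells. The measure was Spearman's rho across cells thinned to 2000 UMIs, averaged over the 6 libraries, at 0.311, 0.271, 0.250, 0.235, and 0.214. For *Chil1* it was 0.212 to 0.308 in 5 libraries and 0.600 in library 1 labelled Zip8AEC2, so the order rested in part on that library. Averaged over the other 5 libraries, *Lyz2* (0.254) and *Chil1* (0.253) led, followed by *Cxcl15* (0.236), *Lrg1* (0.210), and *Scd1* (0.185). Without the Scgb1a1-rich cells the same list was led by *Chil1* (0.283), *Lrg1* (0.221), and *Lyz2* (0.198). Cells of a library share its depth and free RNA, and these values are given as a description.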

How the data were processed

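The deposited values are raw UMI counts per gene and cell barcode, which the authors made by aligning reads to mm10 with Cell Ranger, version 3.1.0 per the file headers. The counts precede the authors' filters in Seurat, and no column of another sample was present. Members, gene lists, and tests were chosen with earlier results of these data known. Kept cells held at least 500 genes and 1000 UMIs and under 15% mitochondrial UMIs. Doublets were marked by scanpy's Scrublet score (version 1.11.5), as the highest-scoring share of kept cells at 0.8% per 1000 barcodes, and stayed in unless stated. Libraries held 93852253 to 118771907 UMIs.

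UMIs were summed per gene, library, and state (Lcn2-high or other gated cells) where both states had at least 20 cells. These sums were fitted in edgeR 4.0.16 (quasi-likelihood, filterByExpr, TMM) with library and state as terms, in R 4.3.3, with p-values adjusted by Benjamini-Hochberg over all genes of a fit and a threshold of 0.05. DESeq2 1.42.0 was an alternative. Genotype fits had the genotype, and interaction fits its product with state. Counts of genes leave out *Lcn2* and the 8 gate genes. Tested on simulated data over 12453 genes of the within-library comparison, the fit recovered 97 of 108 genes changed 4-fold and 63 of 88 changed 2-fold, with 15 false calls.

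The genes named are *Lcn2*, *Retnla*, *Chil1*, *Sftpc*, *Slc39a8*, *Esr1*, and *H2-K1*, the 12 higher and 12 lower genes with the smallest adjusted p and the same sign in every library of the fit, and, of each list, the members called and the most abundant. Called list members beyond the 4 most abundant, *Saa3*, *Pigr*, *Hp*, *Cxcl1*, *Hopx*, *Malat1*, *Vnn1*, *Chia1*, *Spink5*, *Ly6e*, and the genes of the NF-κB stretches among them, were chosen after their values were seen. The limit of 500 *Scgb1a1* UMIs per 10000 was also chosen after seeing the data, since the planned filter (3 of 4 club genes) removes most gated cells. *Cebpd* and *Trbc2* of the lists were not matched to a gene. GENCODE M21 (GRCm38, as mm10) and RefSeq (GRCm38.p6) gave starts and promoters.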

Additional observations from a re-analysis of the deposited data

Results flagged for a closer look

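Among 16 sets of control values tested for a sample far from the others, of which chance would pick about 1 in 20, 1 was picked: the median *Lcn2* level of gated cells was 1.87 per 10000 in control library 2, below the other 3 controls at 2.80 to 2.85. The genes that follow were picked among the named genes only. In edgeR's interaction test, their difference between Lcn2-high and other cells differed between library 1 labelled Zip8AEC2 and 3 controls. With 1 library on that side, this is no test of the genotypes. These were *Retnla* (2.01 on the log2 scale), *Ly6i* (1.42), *Slpi* (0.92), *Sftpd* (0.54), *Cd83* (1.37), and *Scgb3a2* (−0.82), and, chosen after their values were seen, *Spink5* (2.02), *Chia1* (1.20), and *Vnn1* (1.91). Without the Scgb1a1-rich cells *Cd83* had an adjusted p of 0.193 and *Scgb3a2* of 1, and the other 7 passed. *Lrg1* passed there only (−0.64), with an adjusted p of 0.910 when all gated cells entered. When library 2 labelled Zip8AEC2 entered with 10 members as the minimum, *Retnla* (1.25), *Ly6i* (1.25), *Spink5* (1.54), *Vnn1* (1.65), and *Scgb3a2* (−0.99) passed, and *Slpi* (0.41), *Sftpd* (0.25), *Cd83* (1.09), and *Chia1* (0.43) did not. In that setting without the Scgb1a1-rich cells *Scgb3a2* was 0.0025 (adjusted p = 1), and *Retnla* (1.27), *Ly6i* (1.58), *Spink5* (1.47), and *Vnn1* (1.97) passed.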

How the results depend on the processing

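The difference in the share of Lcn2-high cells ranged from −0.54 to 19.2 percentage points with 1 library left out at a time, the lowest without library 1 labelled Zip8AEC2. The labels give both genotypes replicate numbers 1 and 2 but state no pairing, so the 2 shared numbers are not read as pairs. With the replicate block the share difference was 9.29 points. The genotype fits then called 176 genes below the threshold (4 without the block) and 14 at or above 10 per 10000 (6 without it). The members' counts already compare states within a library, and with no library term 76 genes were higher and 95 lower (edgeR in each). With 1 library left out, higher genes ranged from 86 to 319, lower from 131 to 505, interactions from 32 to 40, and genotype calls from 4 to 111 below the threshold and 3 to 176 at or above 10.

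Other settings moved counts by more than 1.5 times, and the cause was not tested. DESeq2 gave 131 higher and 133 lower genes, 1 interaction, and 74 genotype calls below the threshold. An *Lcn2* threshold of 10 gave 680 and 952, and 3 interactions. Leaving out cells with 3 of 4 club or neutrophil genes gave 117 and 39, and 15 interactions, and thinning to 2000 UMIs gave 97 and 129. No filter on low counts gave 7 genotype calls below the threshold. With alternatives chosen after seeing the data, leaving out every shared barcode gave 94 higher and 29 lower genes and 9 interactions, leaving out the Scgb1a1-rich cells gave 138 lower genes, and with 10 cells per state 192 lower genes and 17 interactions. The genotype fit within the members at 10 cells, which called 0 genes, gave 92 with no filter on low counts, 1 under 10% mitochondrial UMIs, 1 without doublets, and 0 to 133 with 1 library left out. Its replicate block left no residual degrees of freedom and was not run. With the Scgb1a1-rich cells left out, dropping a library gave 80 to 288 higher genes and 30 to 149 lower (135, 149, and 119 without control libraries 1, 3, and 4, and 30 without library 1 labelled Zip8AEC2).

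Of 619 values for 27 named genes under an alternative, 520 kept direction and call, and 73 lost the call. Another 1 gained it (*Slc39a8* at a threshold of 10), and 25 changed sign. *Chil1*, *Lyz2* (0.48), *H2-K1*, *Retnla*, and *Clca1* lost the call with no library term. *Retnla* was −0.058 on the log2 scale at a threshold of 10. *Slc39a8* was −0.034 without both the Scgb1a1-rich cells and library 1 labelled Zip8AEC2. The other sign changes of this tally were in the 12 lower genes with the smallest adjusted p-values. With 3 of 4 club or neutrophil genes as the filter, *Bpifa1* was 0.37, *Reg3g* 0.36, *Tff2* 0.019, and *Lypd2* 0.19. With every shared barcode left out *Bpifa1* was 0.46. Without the Scgb1a1-rich cells, *Reg3g* was 0.26 and *Clca1* 0.055, and with 10 cells per state also *Reg3g* 0.21, *Clca1* 0.038, *Bpifb1* 0.037, and *Tff2* 0.034. Without those cells and control library 1, *Bpifa1* was 0.11, *Bpifb1* 0.012, *Reg3g* 0.28, *Lypd2* 0.025, and *Clca1* 0.065. Without control library 3 they were *Reg3g* 0.43, *Tff2* 0.045, *Muc5b* 0.15, and *Clca1* 0.058, and without control library 4 *Reg3g* 0.29, *Tff2* 0.040, and *Clca1* 0.064. Outside this tally, *Pigr* passed the threshold, in either direction, in 10 of 23 alternatives, with log2 differences from −0.82 to 3.47. *Saa3* passed in 19 of 21, *Hopx* in 21 of 23, *Akap5* in 17 of 23, and *Scd1* in 19 of 23. Within-library fits with at least 50 cells per state or an *Lcn2* threshold of 40 were not run, since 1 library remained. Few members in 5 of 6 libraries limit comparisons between genotypes within the members.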
